A study of Mus musculus with 28 samples.

Results

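The response of wild-type mouse dendritic cells to CpG DNA was followed over 3 times by messenger RNA sequencing. The libraries were chosen by their labels: wild-type cells collected 1, 3 and 8 h after CpG, and the wild-type control, which make 4 of the 28 libraries of the series. The whole study covered wild-type cells (WT), cells lacking RelB (RelBko), cells lacking the type I interferon receptor (IFNARko) and cells lacking both, after CpG and after Poly(I:C). Every group held 1 library, so no spread between replicates exists, no test was run and no p-value is given. The cells were grown from femoral bone marrow of C57BL/6 background mice, with GM-CSF at 20 ng/ml and IL-4 at 10 ng/ml. The labels give no age and do not say whether the libraries came from separate mice or cultures. CpG was ODN 1668, an unmethylated oligonucleotide, at 0.1 µM. The control received no stimulus and is labelled 1 h, so a change at 3 or 8 h cannot be told apart from a change with time in culture.

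CpG DNA is sensed in endosomes by TLR9, which signals through the adaptor MYD88 to the kinases IRAK and TAK1. NF-kB and the MAP kinases then switch on cytokine, chemokine and feedback genes within the first hours. A second wave can follow when interferons or other secreted factors act back on the same cells through their receptors and the STAT factors. Dendritic cells that sense CpG also mature, which raises co-stimulatory molecules and the factors that draw in and instruct lymphocytes.

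Levels are given as reads per 1000000 of the library total (CPM), always in the order control, 1 h, 3 h and 8 h unless stated. They are shares of reads and are not divided by gene length, so levels of different genes are not compared. Changes are differences of log2(CPM + 1) from the control, which understate the change of low genes. A gene is said to have risen or fallen where this change was at least 2-fold, a rule of size and not a test. Folds given with a 95% counting interval are ratios of CPM, and the interval covers counting error only. Depth was 6974829, 7885279, 11630000 and 42227938 reads, so values of low genes are least certain in the control. Of 24995 named genes, 11677 had a mean of at least 1 CPM over the 4 libraries and were compared. In bulk RNA, fewer cells of a type and less RNA per cell cannot be told apart.

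The dendritic cell label was set against 11 markers, of which 10 were compared. Itgax, which encodes the integrin CD11c, was at 1197, 1124, 1045 and 823 CPM, and the MHC class II gene H2-Aa was at 2075, 2131, 1967 and 1679 CPM. Zbtb46, a transcription factor of conventional dendritic cells, was at 59.1, 59.4, 109 and 83.5 CPM. Flt3, the receptor of their growth factor, was at 2.01, 3.04, 3.44 and 4.93 CPM, and no read of the lectin Cd209a was found in any of the 4 libraries, which allows up to 0.43, 0.38, 0.258 and 0.0710 CPM. Macrophage and monocyte markers were present together with them. Their 11 genes summed to 2701, 2652, 2464 and 2511 CPM, and the dendritic cell list to 12528, 13109.7, 12156 and 10094 CPM. These sums hold different genes, so their sizes are not compared. Members of the macrophage list moved in both directions: at 8 h 1 had risen, Emr1 with a change of 2.34, and 2 had fallen. Markers of T cells summed to 25.8 to 46.4 CPM, of B cells to 6.61 to 9.75 CPM and of neutrophils to 79.1 to 118 CPM. Those of NK cells summed to 86 to 183 CPM and of mast cells and basophils to 6.16 to 20.7 CPM, and all 5 of these sums were lowest at 8 h. The sum over markers of plasmacytoid dendritic cells went the other way, at 152, 153, 173 and 352 CPM, highest at 8 h. Of their 5 genes only 2 were compared, and 1 of these, Bst2, had risen at 8 h, with a change of 1.36. The sum therefore does not describe the 5 genes as a group. Haemoglobin genes and the other erythroid markers stayed under 1 CPM in sum. The part of these other cells in the results below was not tested.

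The response began with a small set of genes, widened sharply between 1 and 3 h, and by 8 h held more falls than rises. At 1 h, 39 genes had risen (0.334% of those compared) and 21 had fallen (0.180%). At 3 h, 496 had risen (4.25%) and 554 had fallen (4.74%). At 8 h, 703 had risen (6.02%) and 1170 had fallen (10.0%). These shares are to be set beside each count of list members below, and a list near them does not differ from all genes. The median change of all genes compared was 0.05, -0.18 and -0.22 at the 3 times, and the split depends on how libraries are scaled. Scaling by median of ratios moved that median by -0.04, 0.19 and 0.25 and gave 664 rises and 318 falls at 3 h, and 1038 rises and 698 falls at 8 h. With TMM the splits were 670 against 309 and 1118 against 653, and with the upper quartile they were 611 against 371 and 885 against 826. At 3 and 8 h rises thus outnumbered falls under these 3 scalings, and falls outnumbered rises on the library total.

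Each risen gene was grouped by the times at which it passed 2-fold. Of 838 genes that rose at some time and fell at none, 24 were up at all 3 times, 12 at 1 h only, 123 at 3 h only, 347 at 3 and 8 h and 330 at 8 h only. The highest of the 3 times was 1 h for 13 of them, 3 h for 261 and 8 h for 564. Of the 39 genes up at 1 h, 25 were still up at 3 h and 25 at 8 h. Of the 496 genes up at 3 h, 371 remained up at 8 h, 45 had dropped at least 2-fold from their 3 h level and 63 had climbed at least 2-fold further. Falls came later. Of 1329 genes that fell at some time and rose at none, 11 were down at 1 h only, 2 at all 3 times, 149 at 3 h only, 402 at 3 and 8 h and 758 at 8 h only. Another 3 genes both rose and fell and are in neither count: Egr1, Gpr183 and the low gene Fignl2, the last named after its values were seen.

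**Figure D1:**
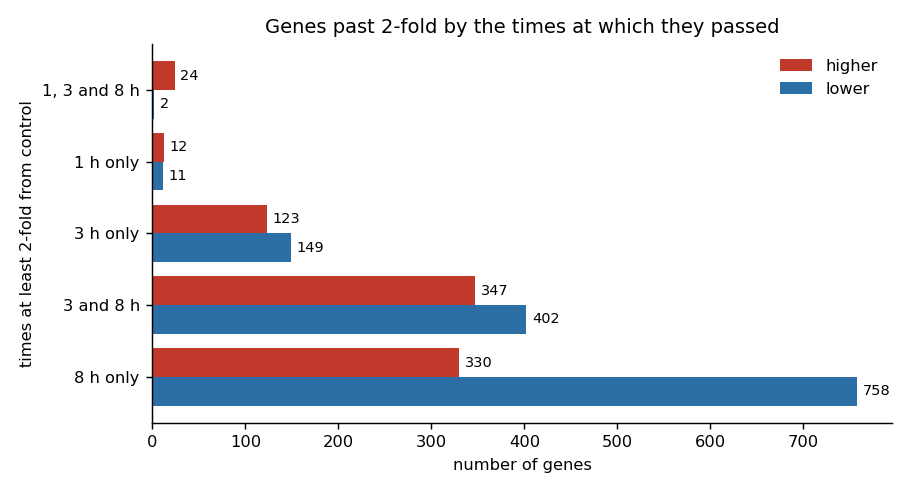
Number of genes (horizontal axis) in each pattern of times at which the gene was at least 2-fold from the control (vertical axis), for genes higher (red) and lower (blue) than the control in the wild-type libraries. Most risen genes were up at 3 and 8 h (347) or at 8 h only (330), and 758 genes were lower at 8 h only.

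Of the 10 largest rises at 1 h, Tnf, Il6, Il1a, Il1b, Tnfsf9, Cxcl1 and Cxcl2 encode cytokines or chemokines, and the others were Nfkbiz, Socs3 and Ptgs2. Tnf, the cytokine that spreads inflammation, was at 9.75, 339.9, 656 and 431 CPM. It was low in the control alone, in all 3 CpG libraries many times higher, and had risen 34.9-fold (95% counting interval 27.4 to 45) by 1 h, which was 51.1% of its rise to the 3 h maximum. Nfkbiz, which encodes the nuclear NF-kB cofactor IkB-zeta, was at 2.58, 99.7, 334 and 190.1 CPM and had risen 38.6-fold (95% counting interval 24.3 to 65.5) by 1 h. These were the largest log2 changes at that time, 4.99 and 4.81. Socs3, a feedback inhibitor of cytokine receptors, was at 12.5, 97.4, 159 and 125 CPM and had already made 57.9% of its full rise at 1 h. Tnfsf9, which encodes the co-stimulatory 4-1BB ligand, was at 2.44, 21.3, 36.4 and 11.8 CPM, and Ier3, an early survival gene, was at 12.6, 67.1, 79.8 and 39 CPM. Both were highest at 3 h and lower at 8 h.

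The list of NF-kB subunits, inhibitors and feedback genes held 29 members, all compared, of which 4, 10 and 9 had risen at 1, 3 and 8 h and 0, 2 and 0 had fallen. Under median of ratios, TMM and the upper quartile, 18, 18 and 17 had risen at 3 h and 17, 18 and 11 at 8 h. The early members were Nfkbiz, Nfkbia, Tnfaip3 and Nfkbid. Nfkbia, which encodes the inhibitor IkB-alpha, was at 299, 822, 948 and 794 CPM, and Tnfaip3, which encodes the ubiquitin-editing inhibitor A20, was at 125, 384, 629 and 426 CPM. Both were at least 2-fold up at every time, whereas Nfkbie, another IkB, was at 60.9, 67.3, 213 and 219 CPM and rose only from 3 h. Among the subunits, Rela was at 140.1, 138, 166 and 137 CPM, Nfkb1 at 326, 368, 624 and 425 CPM, Nfkb2 at 255, 294, 488 and 434 CPM and Relb at 93.9, 103, 187 and 156 CPM, and none of these changed by 2-fold on the library total. At 3 h Nfkb1, Nfkb2 and Relb passed 2-fold under the other 3 scalings, the last at a main change of 0.99. Map3k14, which encodes the kinase NIK of the non-canonical NF-kB pathway, went the other way: it was at 218, 235, 46.5 and 109.9 CPM, a change of -2.21 at 3 h, and was partly back at 8 h. The other fall at 3 h was Otud1, at 8.75, 5.71, 3.35 and 5.64 CPM.

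Promoters show the sequence to which NF-kB can bind in some of these early genes. The motif searched was GGGA, any base and TTTCC on both strands, and it was found in 135 of 32851 RefSeq promoter windows of 300 bases (0.411%, build GRCm38.p6). Of the 29 genes of the NF-kB list, 26 matched a window, and 4 of their 37 windows held it (10.8%). Of the 39 genes up at 1 h, 29 matched a window, and 4 of their 38 windows held it (10.5%). Of genes first up at 3 h, 2 of 454 windows did (0.441%). Windows of Cxcl2, Il6 and Cxcl1, which are outside the NF-kB list and rose by 1 h, are shown because each holds 1 match, in capitals, in the 250 bases before the RefSeq start. They lie at chr5:90903649-90903898 (+ strand), chr5:30012864-30013113 (+ strand) and chr5:90890995-90891244 (+ strand). The 3 genes were taken by the size of the change at 1 h among genes with a match there. Tnf, Nfkbiz and Socs3, with changes of 4.99, 4.81 and 2.87 at 1 h, are not shown, as none was found there in a searched window. A match describes these letters and not binding.
Cxcl2: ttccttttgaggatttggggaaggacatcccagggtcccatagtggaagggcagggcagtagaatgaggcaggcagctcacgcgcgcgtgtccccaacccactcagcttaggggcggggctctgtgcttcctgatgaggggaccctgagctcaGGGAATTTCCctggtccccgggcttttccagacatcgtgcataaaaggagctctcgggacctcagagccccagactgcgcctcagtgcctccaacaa
Il6: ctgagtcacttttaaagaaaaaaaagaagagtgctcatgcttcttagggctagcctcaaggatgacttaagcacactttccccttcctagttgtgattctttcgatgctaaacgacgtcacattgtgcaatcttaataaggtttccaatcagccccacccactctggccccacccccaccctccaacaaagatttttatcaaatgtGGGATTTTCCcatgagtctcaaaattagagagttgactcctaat
Cxcl1: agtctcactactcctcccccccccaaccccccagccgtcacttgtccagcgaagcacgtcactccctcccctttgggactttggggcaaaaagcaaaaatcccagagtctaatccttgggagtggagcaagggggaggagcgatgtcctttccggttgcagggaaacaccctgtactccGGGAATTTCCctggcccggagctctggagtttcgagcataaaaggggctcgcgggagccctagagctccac

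Cxcl2 and Cxcl1 encode chemokines that draw neutrophils through the receptor CXCR2. Cxcl2 was at 9.32, 117, 822 and 546 CPM, a rise of 12.6-fold (95% counting interval 9.77 to 16.4) by 1 h and of 88.2-fold by 3 h. Cxcl1 rested on 1 read in the control and was at 0.143, 6.72, 94.8 and 92.9 CPM, a ratio of 661-fold (95% counting interval 118 to 26128) at 3 h. Their neighbours in the family followed later and were highest at 8 h. Cxcl3 was at 34.4, 50.5, 910.1 and 2072 CPM, and Cxcl5, with no read in the control, was at 0, 0.634, 65.9 and 428 CPM, at least 995-fold higher at 8 h than a floor of 3 control reads. Ppbp, the fifth of the 5 neutrophil chemokines compared, was at 8.89, 6.85, 46.3 and 110.1 CPM. All 5 were up at 3 and at 8 h, and 2 of them already at 1 h.

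Il6, which encodes an inflammatory cytokine that acts on B and T cells and on the liver, was at 4.44, 37.7, 325 and 334 CPM and had risen 8.47-fold (95% counting interval 5.84 to 12.7) by 1 h. Its levels at 3 and 8 h were nearly the same. Il6ra, its receptor chain, was at 87.7, 84.3, 17.8 and 27.2 CPM and had fallen by 2.24 on the log2 scale at 3 h. Il10, the anti-inflammatory cytokine, stayed under the filter, at 0, 0.507, 0.43 and 0.995 CPM. Il1b and Il1a encode the 2 forms of interleukin 1 and were both highest at 3 h: Il1b was at 3.73, 24.3, 526 and 450.4 CPM and Il1a at 9.75, 59, 503 and 458 CPM. Il1rn, which encodes their soluble antagonist, came later, at 78.3, 101, 467 and 927 CPM, and Il1r2, the decoy receptor, was at 55.2, 65.3, 36.2 and 7.13 CPM, a loss of 7.74-fold by 8 h. Of the 16 genes of the IL-1 family and its processing that were compared, 2, 6 and 7 had risen at the 3 times, and Il1r2 and Pycard had fallen at 8 h. These 2 falls are near the share of falls among all genes compared (10.0%).

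The interleukin 12 family joins shared subunits into different cytokines. Il12b, the p40 subunit of both IL-12 and IL-23, was at 6.45, 25.1, 504 and 848 CPM, and its rise continued to 8 h, when it was 132-fold (95% counting interval 98.3 to 180.3) above the control. Il23a, the p19 partner that makes IL-23, rested on 1 read in the control and was at 0.143, 3.3, 13.3 and 1.49 CPM. It had made 23.9% of its rise at 1 h, was highest at 3 h and had lost most of it by 8 h. Il12a, the p35 partner that makes IL-12, stayed under the filter, at 0, 0.127, 0.43 and 1.52 CPM. Il27, the p28 subunit of IL-27, was at 0.287, 0.38, 7.57 and 5.28 CPM, and its partner Ebi3 was at 65.7, 73.3, 133 and 181 CPM. Of the IL-23 subunits, p40 was thus highest at 8 h and p19 at 3 h.

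A few immediate early factors and regulators of mRNA decay were highest at 1 h. Egr1, a growth-induced zinc finger factor, was at 13.5, 63.5, 8.25 and 5.07 CPM, with its maximum at 1 h and values below the control later, past 2-fold at 8 h except with TMM scaling. Zfp36, which encodes tristetraprolin, a protein that removes AU-rich mRNAs, was at 131, 335, 192 and 161 CPM. Dusp1, a phosphatase that turns off MAP kinases, was at 67.1, 154, 85 and 106 CPM. Both rose at 1 h only, and the Dusp1 rise (1.18) is near the threshold. Of 20 genes of the DUSP and mRNA decay list compared, 3, 4 and 3 had risen at the 3 times and 0, 4 and 2 had fallen, with 5 or 6 rises at 8 h under the other scalings. The 2 falls at 8 h are near the share of falls among all genes compared (10.0%). Dusp14, a phosphatase of the same family, was at 2.15, 4.19, 21.1 and 10.1 CPM, up at 3 and 8 h. Zc3h12a, which encodes the RNase Regnase-1, differed in that it kept rising, at 34, 72.5, 213 and 236 CPM. Of 28 immediate early factors compared, 2 had risen at 1 h, namely Egr1 and Ier3, of which Ier3 stayed up at 3 and 8 h, while 7 had fallen at 3 h. Fos was at 18.1, 23, 6.96 and 10.4 CPM, Fosb at 8.46, 10.0, 3.27 and 0.474 CPM and Jund at 511, 355, 177 and 192 CPM, so these members were highest in the control or at 1 h and low thereafter. Jun, at 255, 304, 184 and 179.7 CPM, did not change by 2-fold.

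The falls at 1 h were of another kind. Of the 21 entries, 10 were protein-coding, 6 were long non-coding RNAs, 1 was a miRNA gene, 1 was a small nuclear RNA and 3 had no match in the annotation. The most abundant, the entry Yam1, was at 32651, 6052, 22529.5 and 9855 CPM, the largest share of reads of any entry in the control and at 3 h. Mir6236 was at 269.7, 84.7, 258 and 139.8 CPM, Lars2, which encodes the mitochondrial leucyl-tRNA synthetase, at 846, 232, 736 and 328 CPM, and Malat1, a nuclear long non-coding RNA, at 2328, 1109.9, 1659 and 1546 CPM. All 4 were lowest at 1 h and higher again at 3 h, so their levels do not follow the order of the times. None of the 21 fell 2-fold at 1 h in the RelBko or the IFNARko series, against their own controls, and 3 did in the double knockout. Leaving Yam1 out of the library totals gave 36 rises and 24 falls at 1 h.

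**Figure D2:**
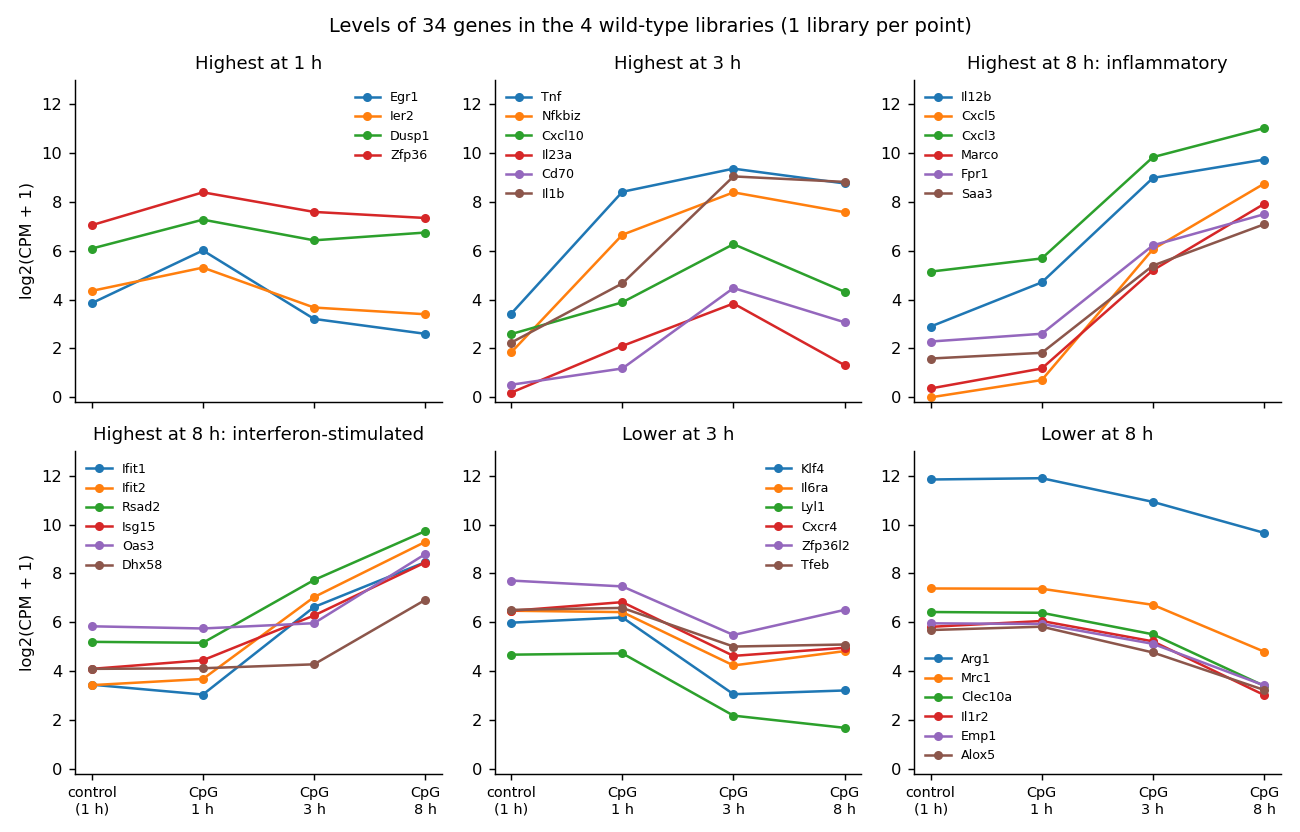
Levels as log2(CPM + 1) (vertical axis) of 34 genes in the control and 1, 3 and 8 h after CpG (horizontal axis, evenly spaced and not to scale in time), 1 library per point, grouped by the time of the highest value or by the time by which they were lower. Tnf and Nfkbiz had made most of their rise on this log scale by 1 h, Oas3 and Dhx58 climb between 3 and 8 h, and Klf4, Il6ra and Lyl1 are low from 3 h on.

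Chemokines that act on lymphocytes and monocytes and passed 2-fold showed 3 different courses. Of 11 CC chemokines compared, 1, 3 and 4 had risen at 1, 3 and 8 h and none had fallen. Under the other scalings 4 or 5 had risen at 3 h and 5 at 8 h. On the library total, Ccl2, Ccl7 and Ccl12 had changes of 0.86, 0.59 and 0.75 at 8 h, short of 2-fold. Ccl17 went down, with a change of -0.66. Ccl3 and Ccl4, which draw monocytes and T cells, were at 29, 68.7, 698 and 357 CPM and at 15.6, 21.1, 173 and 67.5 CPM, both highest at 3 h and lower at 8 h. Cxcl10, which draws T cells through CXCR3, was at 5.02, 13.8, 76.2 and 19 CPM and had given up most of its rise by 8 h, and Cxcl9, a ligand of the same receptor, was at 1.43, 2.16, 17.5 and 15 CPM. Ccl5, which draws T cells and monocytes, was at 378, 446, 692 and 1159 CPM, up at 8 h and, under the other scalings, at 3 h. Ccl22, which draws regulatory T cells through CCR4, was at 4369, 5207, 10217 and 15434 CPM, and by 8 h had gained more CPM than any other gene. Its change was 1.82 on the log2 scale.

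Many maturation genes were up from 3 h on. Of 35 genes of dendritic cell maturation and migration compared, 0, 16 and 19 had risen at 1, 3 and 8 h and none had fallen, with medians of 0.23, 0.98 and 1.08. Cd40, the receptor of the T cell help signal, was at 11.5, 15.9, 259.8 and 262 CPM, a rise of 22.6-fold (95% counting interval 18.1 to 28.6) at 3 h, and nearly the same at 8 h. The co-stimulatory ligand Cd80 was at 23.5, 33.9, 128 and 122 CPM, whereas Cd86 was at 119, 150.0, 223 and 245 CPM, a change of 1.04 at 8 h. Fscn1, which encodes the actin-bundling protein fascin of migrating dendritic cells, was at 179, 227, 1197 and 936 CPM. Cd274, which encodes the inhibitory ligand PD-L1, was at 360.4, 479, 869 and 1066 CPM. Ccr7, the receptor that guides mature dendritic cells to lymph nodes, was already at 758 CPM in the control and was then at 1001, 828 and 1315 CPM, short of 2-fold (past it at 8 h with median of ratios and TMM). MHC class II genes did not follow: of 15 compared, 4 had fallen and 1, H2-Eb2, had risen at 8 h, with 2 or 3 falls under the other scalings. Among 22 MHC class I and immunoproteasome genes H2-M2, a non-classical class I gene, alone rose on the library total, at 29.4, 30.9, 119.5 and 345 CPM, and 3 genes of the list were up at 8 h under each of the other 3 scalings. Short of 2-fold, most of this list shifted upward: 18 of the 22 were above the control at 8 h. The median was 0.28, beside -0.22 for all genes compared.

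The sensors of the pathway moved in different ways. Tlr9 itself was at 61.1, 56.4, 39.5 and 41.5 CPM and its adaptor Myd88 at 58.1, 59.6, 92.5 and 85.4 CPM, neither by 2-fold. Of the 31 genes of the TLR9 pathway list, 1, 8 and 9 had risen at the 3 times and none had fallen, and the rise at 1 h was short of 2-fold under the other scalings. Those that rose included receptors for other microbial products: Tlr2 was at 24.2, 42.4, 138 and 89.6 CPM, its partner Tlr1 at 4.59, 4.44, 25.1 and 59.1 CPM, and the lipopolysaccharide co-receptor Cd14 at 59.1, 83.2, 215 and 172 CPM. Ikbke, a kinase that activates interferon regulatory factors, was at 47, 45.3, 261 and 239.5 CPM, and Irak3, an inhibitor of the pathway, was at 20.6, 17, 54.6 and 105 CPM.

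Genes stimulated by interferon rose late, and their list, the largest of the 45 lists, held the most rises at 8 h. Of 71 genes in the list, 68 were compared, and 0, 30 and 59 of these had risen at 1, 3 and 8 h. Ifitm1 and Ifitm6 had fallen at 8 h (1 of them under the other scalings). Of all genes compared, 6.02% had risen at 8 h. Some shorter lists had a larger share up, such as all 5 neutrophil chemokines compared. The median change of the 68 genes was 0.11, 0.89 and 2.33, beside 0.05, -0.18 and -0.22 for all genes compared. Their summed level was 3403, 3591, 6065 and 15673 CPM, so 21.7% of the gain at 8 h was present at 3 h. The highest of the 4 levels was at 8 h for 63 of the 68. The ligands left little trace: Ifnb1, which encodes interferon beta, was at 0, 0.507, 1.2 and 0.568 CPM, and the other 7 type I and III interferon genes looked up had no read in any of the 4 libraries. A further 8 of that list were not analysed here.

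Members of the group differed in how early they moved. Ifit2, which binds viral RNA, was at 9.75, 11.8, 129.7 and 624 CPM, a rise of 13.3-fold (95% counting interval 10.4 to 17.2) at 3 h and of 64-fold (95% counting interval 50.5 to 82.5) at 8 h. Rsad2, which encodes the antiviral enzyme viperin, was at 35.7, 34.7, 211 and 849 CPM, and Ifit1, which binds uncapped RNA, was at 9.89, 7.23, 97.6 and 351 CPM. These were up at both times, as were 30 of the 68. Another 29 passed 2-fold at 8 h only. Oas3, an activator of RNase L, was at 56.1, 52.6, 61.3 and 441 CPM, Dhx58, a relative of the RNA sensor RIG-I, was at 16.1, 16.4, 18.4 and 119.6 CPM, and Ddx58, RIG-I itself, was at 30.5, 34.4, 39.1 and 216 CPM. Among the factors that drive such genes, Irf7 was at 28.5, 29.3, 32.4 and 191 CPM and Stat2 at 157, 149, 238 and 591 CPM, both up at 8 h only. Irf1, at 164, 263, 350.4 and 218 CPM, rose earlier and was highest at 3 h, as was Irf4, a factor of dendritic cell subsets, at 230.1, 303, 573 and 411 CPM. Ifnar1, the receptor chain, was at 109, 122, 109 and 142 CPM.

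The interferon-stimulated response element was searched as GAAA, any 2 bases and GAAA on both strands. Of the 71 listed genes, 57 matched a RefSeq promoter window, and 30 of their 68 windows held it (44.1%), against 3.44% of all 32851 windows. The 250 bases before the starts of Ifit3, Ifit1 and Rsad2 are shown, with the matches in capitals. These genes were taken by the size of the change at 8 h among listed genes with a match there. Ifit2, with a change of 5.86 at 8 h, is not shown. The 3 genes were up at both 3 and 8 h and hold 2, 2 and 1 matches. Their windows lie at chr19:34583279-34583528 (+ strand), chr19:34640639-34640888 (+ strand) and chr12:26456453-26456702 (- strand) of GRCm38.p6. Each is written along its gene, so that the element reads as its reverse complement. Ifit3, a partner of Ifit1, was at 1.15, 1.52, 13.2 and 97 CPM.
Ifit3: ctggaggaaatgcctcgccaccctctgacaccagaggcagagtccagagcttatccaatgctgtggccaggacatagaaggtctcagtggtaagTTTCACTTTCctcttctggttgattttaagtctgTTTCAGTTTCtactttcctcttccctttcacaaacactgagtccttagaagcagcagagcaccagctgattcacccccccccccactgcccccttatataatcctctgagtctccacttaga
Ifit1: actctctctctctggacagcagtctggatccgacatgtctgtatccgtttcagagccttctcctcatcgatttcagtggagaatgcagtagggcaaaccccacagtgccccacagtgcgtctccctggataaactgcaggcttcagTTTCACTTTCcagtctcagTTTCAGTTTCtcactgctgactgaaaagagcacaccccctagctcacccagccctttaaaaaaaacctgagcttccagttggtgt
Rsad2: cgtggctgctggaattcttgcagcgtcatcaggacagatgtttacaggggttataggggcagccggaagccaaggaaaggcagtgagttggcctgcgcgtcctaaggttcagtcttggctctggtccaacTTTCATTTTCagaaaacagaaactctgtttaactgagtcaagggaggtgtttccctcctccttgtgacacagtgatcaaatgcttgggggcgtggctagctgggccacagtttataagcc

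**Figure D3:**
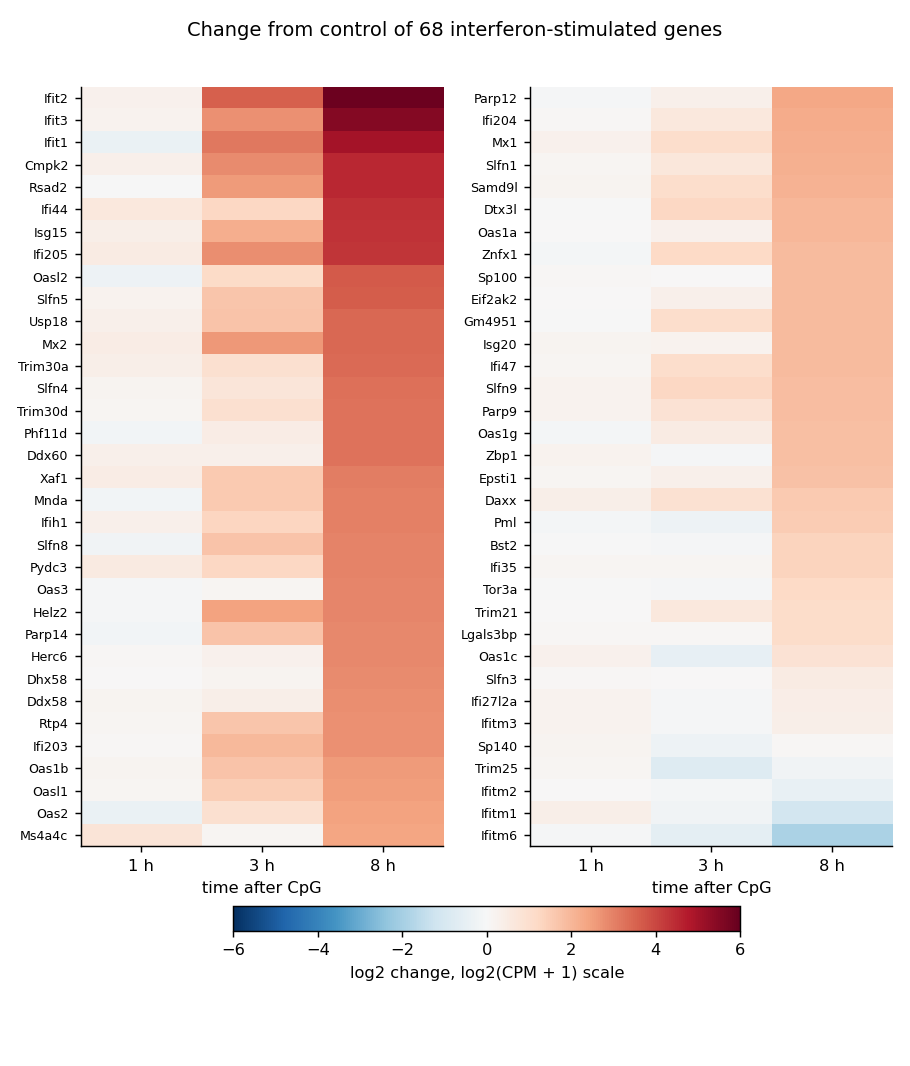
Change from the control of 68 interferon-stimulated genes (rows, ordered by the change at 8 h, in 2 columns of panels) at 1, 3 and 8 h after CpG, as differences of log2(CPM + 1) shown by colour from blue (lower) to red (higher). At 1 h all 68 are pale, at 3 h 30 are at least 2-fold higher, and at 8 h 59 are.

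Among genes of itaconate, nitric oxide and arginine use, Irg1, Nos2 and Arg2 rose and Arg1 fell. Irg1, which encodes the itaconate-forming enzyme of activated macrophages, was at 250.3, 311, 2744 and 3327 CPM, a rise of 11-fold (95% counting interval 10.4 to 11.5) at 3 h. Nos2, the inducible nitric oxide synthase, was at 721, 649, 1667 and 2766 CPM, and Slc7a2, an arginine transporter, was at 739.5, 759, 1828 and 2577 CPM. Arg1, the cytosolic arginase that competes for the same amino acid, moved the opposite way, at 3673, 3811, 1946 and 808 CPM, a ratio to the control of 0.22 (95% counting interval 0.216 to 0.224) at 8 h. Arg2, the mitochondrial arginase, was at 2.44, 3.93, 7.57 and 7.53 CPM, up at 3 and 8 h. Of the 11 genes of this list compared, 5 had risen at 3 h and 6 at 8 h, while Arg1 and Srm, the spermidine synthase, had fallen at 8 h.

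Some targets of Nrf2, the factor of the oxidative stress response, were up from 3 h, and their courses diverged. Of 18 compared, 0, 7 and 6 had risen at the 3 times and Osgin1 had fallen at 8 h. Under median of ratios, TMM and the upper quartile, 10, 10 and 9 had risen at 8 h. Prdx1, a peroxide-removing enzyme, was at 861, 775, 2092 and 5283 CPM, and Fth1, the ferritin heavy chain that stores iron, was at 4621, 4122, 6811 and 12178 CPM, both highest at 8 h. Hmox1, the haem oxygenase gene, was at 3087, 2648, 6933 and 3238 CPM, back near the control at 8 h. Txnrd1, the cytosolic thioredoxin reductase, was at 708, 634, 1612 and 1288 CPM, and Slc7a11, the cystine transporter, was at 698, 577, 1616 and 1536 CPM. At 1 h, 15 of the 18 targets were below the control, none by 2-fold.

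Genes of the prostaglandin pathway moved in both directions. Ptgs2, the inducible cyclooxygenase, was at 2.72, 19.5, 533 and 412 CPM, 195-fold (95% counting interval 125 to 325) above the control at 3 h, and Ptges, the inducible prostaglandin E synthase, was at 2.44, 2.16, 12.6 and 35 CPM. Ptgs1, the constitutive cyclooxygenase, was at 228, 268, 106 and 65.6 CPM, Tbxas1, which makes thromboxane, at 183, 165, 107 and 51.5 CPM, and Alox5, which begins leukotriene synthesis, at 50.3, 55.4, 26.1 and 8.38 CPM. The inducible enzymes were thus up at 3 and 8 h, while these 3 were lowest at 8 h. Over the 18 genes compared, 3 had risen and 7 had fallen at 8 h, against 5 and 5 under each of the other 3 scalings.

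A set of 123 genes was up at 3 h only, by the scaling on library totals. Bcl2l1, which encodes the survival protein BCL-XL, was at 73.6, 76, 331 and 123 CPM, and Nlrp3, the inflammasome sensor, was at 85.3, 89.8, 298 and 153 CPM. Rhof, a small GTPase, was at 29.4, 37.8, 125 and 54.8 CPM, and Fosl1, an AP-1 subunit, at 3.01, 4.31, 12.3 and 4.93 CPM. At 1 h each was nearer to the control than to its 3 h level, and at 8 h each lay between them. Bcl2l1, Nlrp3 and Rhof were also past 2-fold at 8 h under at least 2 of the other scalings. Gpr183, the oxysterol receptor that positions dendritic and B cells, was at 12.6, 17.2, 30.4 and 5.57 CPM, up at 3 h and down at 8 h (the fall was short of 2-fold under the other 3 scalings), and Ch25h, the enzyme that begins synthesis of its ligand, was at 1.43, 2.03, 9.89 and 1.26 CPM.

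The next 6 genes, from different lists, were up at 3 h and higher still at 8 h. Marco, a scavenger receptor for bacteria, rested on 2 reads in the control and was at 0.287, 1.27, 35.9 and 241 CPM, a ratio of 839-fold (95% counting interval 232 to 6927) at 8 h. Clec4e, which encodes the glycolipid receptor Mincle, was at 45, 81, 724 and 941 CPM, and the formyl peptide receptors Fpr1 and Fpr2 were at 3.87, 5.07, 73.6 and 179 CPM and at 4.3, 4.82, 50.7 and 126 CPM. Saa3, an acute phase serum amyloid, was at 2.01, 2.54, 41 and 134 CPM, and Acsl1, which activates long-chain fatty acids, was at 123, 132, 741 and 1348 CPM. The receptor lists as a whole were mixed. Of 11 scavenger receptors compared, 1 and 2 had risen at 3 and 8 h and 1 had fallen at 8 h. That 1 fall is near the share of falls among all genes compared (10.0%). Under the other scalings 2 had risen at 3 h and 2 or 3 at 8 h, with 0 or 1 fall. Of 13 chemotactic receptors, 4 had risen and 3 had fallen at 8 h, against 5 and 2 under the other scalings.

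Among the 10 largest falls at 3 h were the transcription factors Klf4, Lyl1 and E2f2 and the receptor gene Il6ra. Klf4, a zinc finger factor of monocyte development, was at 62.2, 72.4, 7.31 and 8.24 CPM, a ratio to the control of 0.117 (95% counting interval 0.092 to 0.149) at 3 h. Cxcr4, the receptor that holds cells in the bone marrow, was at 87.5, 112, 23.6 and 30.0 CPM. The levels of Klf4 and Cxcr4 did not drop further between 3 and 8 h. E2f2, a factor of DNA replication, was at 53.8, 60.1, 9.2 and 5.26 CPM, Lyl1, a blood cell factor, at 24.5, 25.5, 3.53 and 2.2 CPM, Tfeb, which drives lysosome genes, at 89.9, 95.1, 31.1 and 33 CPM, and Zfp36l2, a relative of tristetraprolin, at 208, 176, 43.6 and 89.9 CPM. Of the 554 falls at 3 h, 404 were also falls at 8 h. Zfp36l2 and Map3k14 were among those that turned back upward by 8 h.

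Falls first seen at 8 h included genes that IL-4 is known to raise in macrophages and dendritic cells. Of 17 genes of alternative activation compared, 0 had risen and 7 had fallen at 8 h (6 under the other scalings), with none past 2-fold at 1 or 3 h. The median was -0.82. Mrc1, the mannose receptor, was at 166, 164, 104 and 26.8 CPM, Clec10a, a galactose-binding lectin, at 84.6, 82.7, 44.5 and 9.54 CPM, and its relative Mgl2 at 1858, 1841, 1351 and 620.2 CPM. Alox15, the 12/15-lipoxygenase, was at 33, 30.3, 18.3 and 5.04 CPM. All 4 were near the control at 1 h, below it at 3 h and lowest at 8 h. Emp1, an epithelial membrane protein, was at 61.1, 60.0, 33.7 and 9.69 CPM and Matk, a kinase that inhibits Src kinases, at 40.3, 44.1, 19.9 and 3.62 CPM, the last a loss of 11.1-fold. Chil3, a chitinase-like protein of the same list that held the largest share of reads at 1 and 8 h, was at 25187, 25482, 22110.5 and 17023 CPM, short of 2-fold. Ltb4r1, the leukotriene B4 receptor, was at 81.6, 80.9, 37.7 and 11.5 CPM, and Ccr2, which draws monocytes, was at 128, 137, 63.2 and 21.1 CPM. Both also passed 2-fold at 3 h, but not under the other 3 scalings.

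Part of the cell cycle genes dropped late. Of 36 compared, 0, 5 and 17 had fallen at the 3 times, and 2 or 3 had fallen at 3 h and 13 or 14 at 8 h under the other scalings. Ccnb2, a cyclin of mitosis, was at 7.31, 9.13, 3.53 and 0.853 CPM, Ube2c, which helps to degrade cyclins, at 13.5, 12.6, 5.59 and 1.09 CPM, and Mcm2, a subunit of the replicative helicase, at 28.2, 32, 15.8 and 8.71 CPM. Each had its lowest level at 8 h. Rises in the list were few, 2 at 3 h and 2 at 8 h, near the shares of rises among all genes compared (4.25% and 6.02%). Cdkn1a, which encodes the inhibitor p21, rose at 3 and 8 h, at 356, 517, 874 and 861 CPM. Ccnd2, the cyclin D2 gene, rose at 8 h, at 525, 612, 969 and 1255 CPM. Mki67, a gene of dividing cells, was at 49.3, 38, 104 and 42.6 CPM, up at 3 h alone.

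Few genes of protein synthesis and respiration passed 2-fold. The 49 ribosomal protein genes compared had a median of -0.16 at 3 h and -0.57 at 8 h, and Rpl10a and Rps16 fell. Reads of such genes can be shared with near-identical pseudogenes, and how these were counted is not given in the sources used here. Their median at 8 h was -0.30, -0.26 and -0.40 under median of ratios, TMM and the upper quartile, and at 3 h its sign turned under the first 2, to 0.04 and 0.05. The 35 genes of oxidative phosphorylation had medians of -0.20 and -0.59, and Cyc1 alone fell at 8 h but not under the other scalings.

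**Figure D4:**
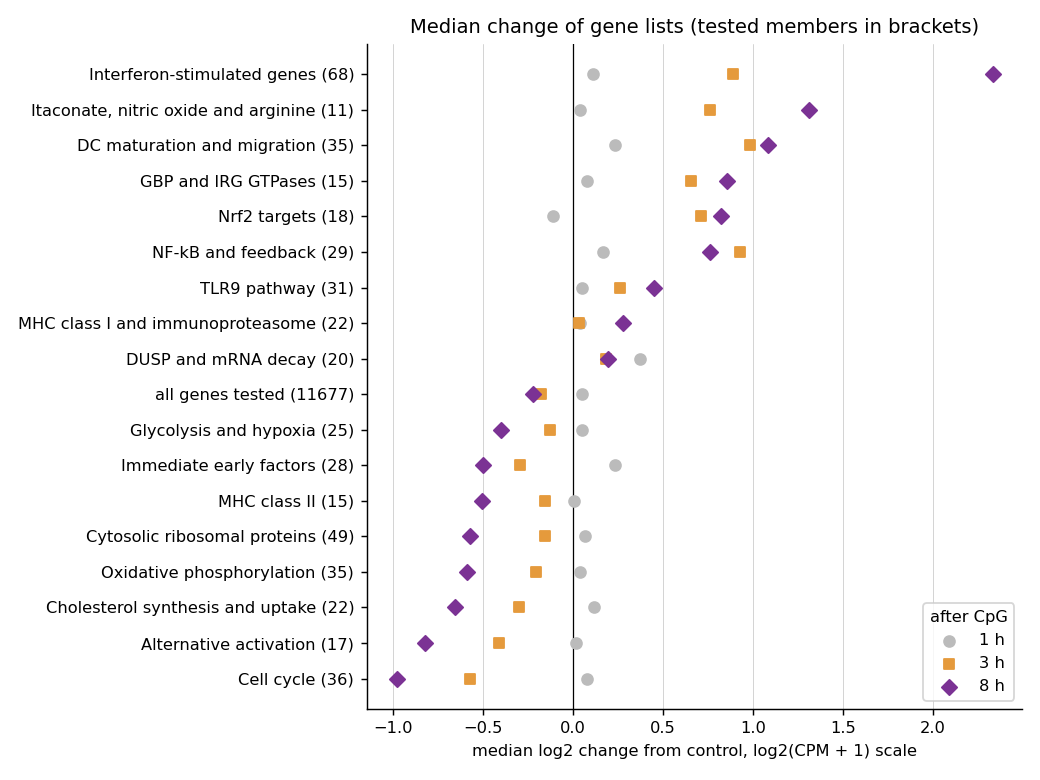
Median change from the control, as a difference of log2(CPM + 1) (horizontal axis), of the tested members of 17 gene lists and of all genes tested (rows, with the number of genes), at 1 h (circles), 3 h (squares) and 8 h (diamonds) after CpG. At 1 h the medians range from -0.11 for the Nrf2 targets to 0.37 for the DUSP and mRNA decay genes. By 8 h they range from 2.33 for the interferon-stimulated genes to -0.98 for the cell cycle genes.

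The largest gains in share of reads were unevenly spread. The 20 largest gains held 27.4% of all gains in CPM at 8 h, and the 50 largest held 39.4%. Ccl22, Fth1, Prdx1 and Irg1 were among the first 5, with Mmp12, a macrophage elastase, at 5672, 5641, 6935 and 9920.4 CPM. The mitochondrial transcripts mt-Rnr2, at 1599, 2526, 2276 and 4481 CPM, and mt-Co1, at 5175, 6994, 6204 and 7315 CPM, and beta-actin, Actb, at 7016, 7466, 9953 and 9784 CPM, gained shares too. Besides Yam1, the largest losses were those of Chil3 and Arg1, followed by Psap, which encodes the lysosomal protein prosaposin, at 14281, 14102, 13102 and 11635 CPM, and Tgm2, tissue transglutaminase, at 2980.4, 3120.2, 2109.9 and 833 CPM. The invariant chain gene Cd74 was at 6386, 6742, 6111 and 4362 CPM. Of these, Arg1 and Tgm2 fell by at least 2-fold, and Chil3, Psap and Cd74 did not.

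**Figure D5:**
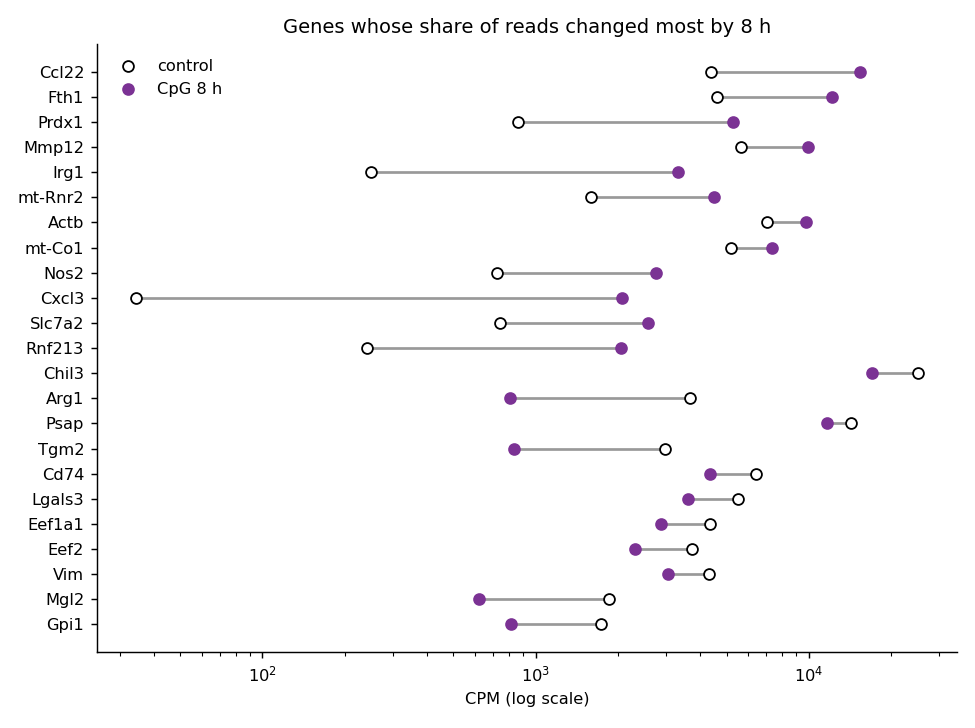
Levels in the control (open circles) and 8 h after CpG (filled circles), in CPM on a log scale (horizontal axis), of the 12 genes with the largest gain and 11 with the largest loss in CPM (rows), the entry Yam1 left out. Ccl22 moved from 4369 to 15434 CPM and Arg1 from 3673 to 808 CPM.

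The same calls were looked up in the other genotypes, each against its own control and again with 1 library per group. Of the 39, 496 and 703 rises in wild-type cells at 1, 3 and 8 h, 24, 350 and 511 were among the 32, 466 and 622 rises in RelBko cells. In IFNARko cells 25, 251 and 309 of them were among 48, 292 and 406 rises, and in the double knockout 20, 254 and 255 were among 33, 359 and 357. Tnf was at 14.3, 362, 568 and 420.2 CPM in RelBko cells and at 9.65, 300.4, 320.4 and 316 CPM in IFNARko cells. Ifit2 was at 17.8, 18.9, 198 and 389.9 CPM and at 21.6, 23.2, 10.9 and 11 CPM, and in IFNARko cells it was lower at 3 and 8 h than in their control. Poly(I:C) in wild-type cells was measured against the same control library, so its changes are not independent of those after CpG. There Tnf was at 9.75, 61.2, 44.9 and 21.3 CPM, Ifit2 at 9.75, 12, 459.5 and 435 CPM and Il12b at 6.45, 7.39, 22.3 and 19.2 CPM.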

How the data were processed

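The authors deposited 2 sheets of normalised values per gene, and the CpG sheet was used, with the wild-type Poly(I:C) values read from the other. The values are recorded here as signal, since no unit is named: reads per 1000000 of the library total (CPM) plus 1. Per the submitters' processing notes, cutadapt, edgeR and the mm10 build were used. The aligner, the counting tool and its treatment of strand and of near-identical genes are not given in the sources used here. Stranded mRNA libraries were made from 1 µg of RNA and sequenced as single 50-base reads, per the labels' protocols.

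Whole reads were recomputed from the deposited values, and 100% lay within 0.001 of a whole number. Of 27178 entries, 2161 without a gene name (0.0733% to 0.107% of reads) and 11 symbols that occur on several lines did not enter. Genes with a mean of at least 1 CPM over the 4 libraries entered, and a log2 difference of 1 with a pseudocount of 1 was called. Counting intervals are exact (Clopper-Pearson, 95%), and floors are 3 reads per library. No count model could be tested, since each group has 1 library. Scaling factors and intervals were computed in Python 3.11.15 (pandas 2.3.3, numpy 2.4.6, scipy 1.17.1, matplotlib 3.10.9), with TMM written out in code, and were tested on simulated data.

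The libraries, the 45 gene lists and the rules were chosen with earlier results of these data known. Named genes are, per time and direction, the 10 largest changes among genes averaging 5 CPM or more, as many as 8 per kinetic pattern, the 10 largest gains and losses at 8 h, up to 8 members per list with their pairs, and a fixed set of cytokine, NF-kB and interferon genes. Some genes under this rule are not reported here. Members of lists outside this rule were named after their values were seen. Alternatives were the pseudocount, the filter, 3 scalings, a 4-fold call, an interval wholly past 2-fold and, chosen after seeing the data, library totals without Yam1. Promoter sequences and gene biotypes are from RefSeq (GRCm38.p6).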

Additional observations from a re-analysis of the deposited data

How the results depend on the processing

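No paired analysis was possible because each group held 1 library, and for the same reason no library could be left out and no spread between replicates measured. The counts at 1 h rest on few reads. With CPM + 0.5 they were 75 rises and 41 falls, with CPM + 5 they were 21 and 8, and with a mean of at least 5 CPM there were 9 falls. With CPM + 5 there were 223 falls at 3 h and 545 at 8 h. Median-of-ratios scaling gave 318 falls at 3 h and 698 at 8 h. TMM gave 309 falls at 3 h, and 1118 rises and 653 falls at 8 h. A 4-fold call left 12 rises and 2 falls at 1 h, 124 and 26 at 3 h, and 199 and 131 at 8 h. An interval wholly past 2-fold left 21 rises and 8 falls at 1 h and 258 falls at 3 h. The other counts stayed within 1.5 times, and no named change turned its sign while called. Of 606 called changes of named genes, 549 stayed past 2-fold with median of ratios, 544 with TMM, 558 with the upper quartile, 601 without Yam1 in the totals and 496 with CPM + 5. The cause of these shifts was not tested. Depth limits low genes most in the control, where 1 read is 0.143 CPM, against 0.0237 CPM at 8 h. The control is labelled 1 h, so time in culture and CpG cannot be told apart at 3 and 8 h.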

Other observations

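Further gene groups of the wild-type CpG course, by the same 2-fold rule, showed mixed members. Of 15 matrix metalloproteinases and inhibitors compared, 5 and 7 had risen at 3 and 8 h and 3 had fallen at 8 h. Mmp14, a membrane-bound collagenase, was at 20.5, 22.4, 85.5 and 197 CPM in the order control, 1, 3 and 8 h, and Mmp13, another collagenase, was at 75.7, 88.4, 245 and 329.8 CPM. Mmp19 fell, at 699, 615, 423 and 176 CPM. Of 12 metal and iron genes compared, 6 had risen at 3 h and 6 at 8 h. Among them, Lcn2, which binds bacterial siderophores, was at 25.4, 26.4, 68.6 and 209.6 CPM, and Slc11a1, which exports metals from phagosomes, was at 31, 29.7, 66.8 and 167 CPM. Growth factors also varied: Inhba, an activin subunit, was at 28.2, 36.3, 201 and 179 CPM, Edn1, the vasoconstrictor endothelin 1, at 6.45, 9.38, 61.4 and 57 CPM, and Csf3, the granulocyte growth factor, at 0, 0.127, 4.13 and 8.76 CPM, which was at least 20.4-fold higher at 8 h than a floor of 3 control reads. Csf1, the macrophage growth factor, was at 289.6, 353, 585 and 253 CPM, highest at 3 h and there at the threshold (1.01).

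C-type lectins divided by direction. Of 16 compared, 4 had risen and 7 had fallen at 8 h. Clec4d, a partner of Mincle, was at 36.6, 35.5, 102 and 198 CPM, and Clec4n, which encodes Dectin-2, was at 496, 483, 999 and 1115 CPM. Clec4a2, an inhibitory receptor, was at 142, 153, 115 and 65.7 CPM, a fall short of 2-fold under the other scalings, and Clec5a was at 134, 143, 113 and 52.1 CPM. Of 10 circadian genes compared, 4 had fallen at 3 h and 3 at 8 h, but under the other 3 scalings 2 had fallen at 3 h and 0 at 8 h. Per1, a clock repressor, was at 37.4, 32.6, 15.4 and 28.2 CPM, and Nfil3, a factor that represses clock output genes, was at 69.4, 73.7, 23.4 and 39 CPM. The control is a 1 h library, so these falls cannot be told apart from time in culture.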
